A study of Mus musculus with 30 samples.

Results

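Platelet RNA of mice labelled as bearing an early tumor (S group) was set against platelet RNA of mice with a large tumor (O group), gene by gene, from raw read counts. The comparison took 10 of the 30 libraries of the study, 5 of S group and 5 of O group, picked by sample title and source name. All mice were female C57BL/6 animals aged 6 to 8 weeks at the start. Mice of S group were given 2000 B16F10 cells, a mouse melanoma line, in 100 µl of Hanks' balanced salt solution under the skin of the right flank, and had no visible tumor at autopsy. The pools of S group can hold animals that would never have developed a tumor. Mice of O group were given 100000 cells of the same line by the same route and carried palpable tumors. C group, whose 5 platelet libraries are used below for levels and in 1 alternative fit, had the solution without cells. Blood was taken into EDTA on day 14. Each library was made from RNA pooled over mice, with 10 mice per S group pool in the labels (the methods vary this slightly) and 3, 4, 5, 3 and 5 mice in O group pools 1 to 5, so that pool size and tumor size cannot be told apart. A replicate here is a pool, and the model is a single transplanted line in a single strain. Platelets were pelleted from platelet-rich plasma, which a low-speed spin parts from most blood cells. Neither a further removal of leukocytes and red cells nor a check for other cells in the pellet is described in the sources used here.

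Platelets are cell fragments without a nucleus that are shed by megakaryocytes, and most of their RNA is made in the megakaryocyte before they are released. They are known for hemostasis, and they also store chemokines and growth factors and carry adhesion and immune receptors. Platelet preparations from blood can also hold some leukocytes and young red cells, each of which carries far more RNA than a platelet.

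Between 12259036 and 19942596 reads were counted on genes in a library. Defining platelet genes were abundant in all 10 libraries. Itga2b, the integrin subunit of the fibrinogen receptor, was at 5883, 6160.2, 9577, 4688 and 4753 CPM in S group, against 10598, 8843, 4813, 11179.8 and 2859 CPM in O group, where CPM are counts scaled to a common library size after TMM normalization. The summed level of 26 platelet and megakaryocyte markers ranged from 36767 to 86129.5 CPM in S group and from 23519.6 to 94454 CPM in O group. These ranges overlapped. O group replicate 1 stood apart in other respects. Its TMM factor was 0.551, against 0.827 to 1.49 in the other S group and O group libraries. CPM are divided by this factor. Every CPM of O group replicate 1 is thus raised and is not a share of its reads. The summed level of erythroid markers in O group replicate 1 was 779608 CPM, against 47536 to 226437 CPM in the other O group libraries. Hemoglobin genes took 39.0% of the counts of O group replicate 1, 4.02% to 21.9% in the other O group libraries and 11.6% to 22.1% in S group. O group replicate 1 also stood highest for the summed neutrophil markers (3891 CPM, others of O group 329 to 614) and for the summed genes of the mitotic cell cycle (2161 CPM, others of O group 276 to 358). Results that rest on this library are given below without it too.

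O group replicates 1 and 4, each a pool of 3 mice, also stood apart together. In both, 75 genes were more than 2.5 times the highest of the other 8 libraries, a limit chosen after the values were seen, with the highest of the others taken as at least 1 CPM. Gstt1, a glutathione transferase, was at 3104 and 3024 CPM in the pair and at 2.95 to 33.1 CPM in the other 8. Prrt4 was at 405 and 252.4 CPM in the pair and at 0.211 to 0.915 CPM in the other 8, and Hfe2 at 406 and 363 CPM against 0.368 to 8.30 CPM. These 3 genes were named after their values were seen. Of the 75 genes, 64 were lower in S group at an unadjusted P under 0.05, beside 6.67% of all genes tested. The rule that chose the 75 genes largely fixed this direction, so the count is a description. In the PBMC libraries with the same numbers, O group replicates 1 and 4 were above all 8 other S group and O group libraries for 59 of the 75. Gstt1 was there at 554 and 251 CPM, with at most 3.59 CPM in the other 8. The labels give no batch or date for these libraries. Most lower counts of gene lists that changed without the pair, and most named lower genes that lost their call, are therefore given also without both libraries or without O group replicate 1. Leaving out both is an alternative chosen after seeing the data.

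**Figure D1:**
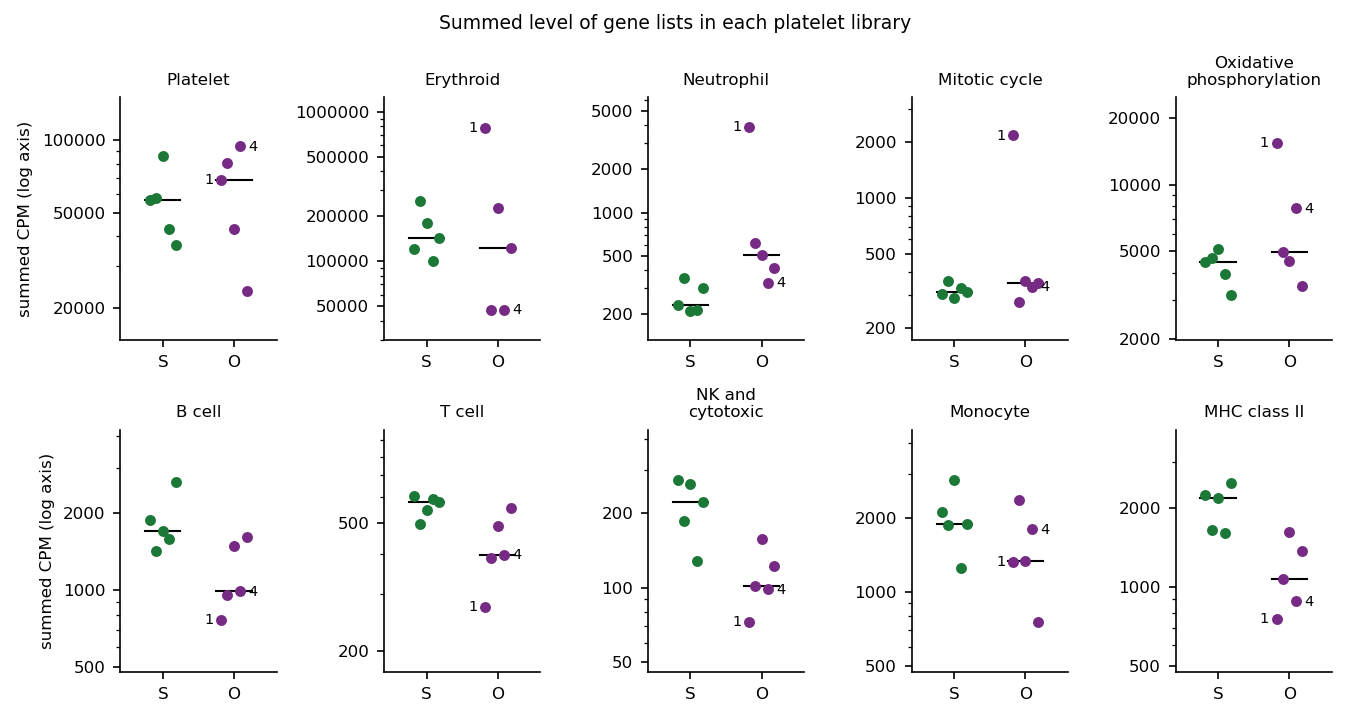
Summed CPM (log axis) of gene lists in each platelet library, with a point per library, a line at the group median, S group and O group side by side, and O group replicates 1 and 4 marked by number. The erythroid, neutrophil and mitotic sums of O group replicate 1 are far above those of its group, while the NK sum runs from 128 to 272 CPM in S group and from 72.8 to 157 CPM in O group.

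More genes were detected in S group. At least 1 read was counted for 18609 to 21292 genes in S group libraries and for 16681 to 19298 genes in O group libraries, and the means of 19818 and 17940 differed by 1878 genes (two-sided exact permutation test, P = 0.0317, where the smallest possible value is 0.00794). With at least 10 reads the difference was 487.6 genes (exact permutation P = 0.325), and it did not pass 0.05 when O group replicate 1, 3 or 4 or S group replicate 5 was left out (1509.55 to 1841.2 genes, exact permutation P = 0.0556 to 0.0635). The 10 most abundant genes took 27.1% to 39.2% of the counts in S group and 26.6% to 48.0% in O group, and these ranges overlapped. Their mean share differed by -2.48 percentage points in S group (exact permutation P = 0.619), and by 0.916 percentage points without O group replicate 1 (exact permutation P = 0.778).

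The response across genes was of both directions. Of 13306 genes that passed the filter on low counts, 1849 (13.9%) had an unadjusted P under 0.05, the threshold of the study, with 962 genes (7.23%) higher and 887 (6.67%) lower in S group. None passed a Benjamini-Hochberg adjusted P of 0.05 in edgeR's quasi-likelihood test, where the smallest adjusted P was 0.225, while DESeq2 on the same genes passed 276. All 5 S group libraries lay above all 5 O group libraries for 245 genes (1.84%) and below them for 180 (1.35%). The median log2 fold change of all genes was -0.01, where a log2 fold change is that of S group relative to O group and its error is a standard error. A difference above 2-fold was found for 370 of the higher and 317 of the lower genes. Without O group replicate 1, 1163 of 13661 genes (8.51%) were higher and 875 (6.41%) lower, and without O group replicates 1 and 4, 932 of 13893 (6.71%) were higher and 670 (4.82%) lower. Every count of list members below is to be read beside these shares of all genes, for the same libraries where given. Below, "higher" and "lower" mean at an unadjusted P under 0.05, "threshold" means that limit, and an adjusted P is the Benjamini-Hochberg value of edgeR's quasi-likelihood test over all genes tested, which was above 0.05 for every gene named. Levels are CPM as means ± SD over the 5 libraries of a group. In these bulk samples, fewer cells of a type and less RNA per cell cannot be told apart.

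**Figure D2:**
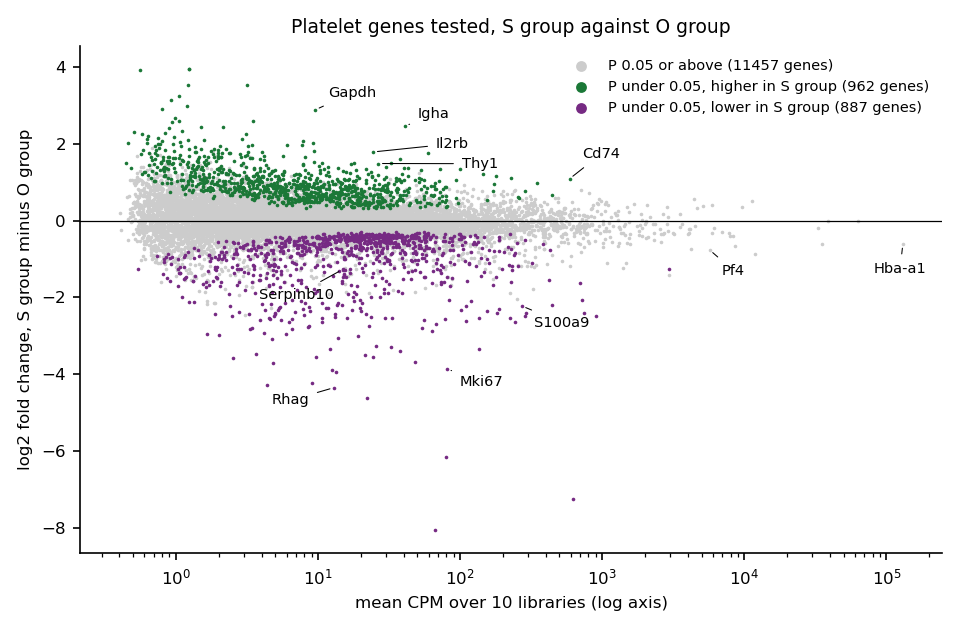
Log2 fold change of S group relative to O group (vertical axis) against the mean CPM over the 10 libraries (horizontal log axis), with a point for each of the 13306 genes tested, colored where the unadjusted P was under 0.05, and some named genes labelled. The 962 higher genes lie mostly under 100 CPM, and the lower genes with the largest folds include Mki67 and Rhag.

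Several of the genes most clearly higher in S group encode lymphocyte surface proteins. By a rule of smallest P among genes of at least 10 CPM whose groups do not overlap, the top 10 were Thy1, Icam2, Napsa, Cd4, Il2rb, Ephx1, Pik3ip1, Samd1, Igha and Hyou1. Thy1, a glycoprotein of mouse T cells (chr9:44043384-44048579 in GRCm38), was at 45.1, 29.04, 37.7, 26.5 and 57.6 CPM in S group, against 12.3, 11.7, 19.2, 9.13 and 17.3 CPM in O group (log2 fold change 1.49 ± 0.26, adjusted P = 0.225). All 5 S group libraries were above the highest O group library, as they were for each of the 10 by the rule. Cd4, the co-receptor of helper T cells (chr6:124864692-124888221), was at 23.5, 16.3, 21.97, 15.4 and 34.7 CPM in S group, against 7.98, 6.73, 11.9, 7.604 and 11.9 CPM in O group (log2 fold change 1.28 ± 0.26, adjusted P = 0.225). Il2rb, the beta chain of the receptors for interleukin 2 and interleukin 15 (chr15:78479256-78495271), was at 58.2, 21.3, 41.4, 18.9 and 49.9 CPM in S group, against 14.9, 5.95, 14.1, 7.399 and 12.8 CPM in O group (log2 fold change 1.79 ± 0.36, adjusted P = 0.225). The lowest S group library thus still held more of each of these transcripts than any library of the large tumor group. Icam2, an adhesion ligand of leukocytes, platelets and endothelium, was at 18.1, 14.3, 18.05, 12.96 and 19.4 CPM in S group, against 4.33, 3.98, 8.72, 8.42 and 8.64 CPM in O group (log2 fold change 1.27 ± 0.26, adjusted P = 0.225). Igha, the constant region of the immunoglobulin A heavy chain, had the largest fold of the 10 and was at 119, 27.7, 38.8, 53.7 and 108 CPM in S group, against 8.38, 5.89, 23.7, 4.54 and 20.3 CPM in O group (log2 fold change 2.46 ± 0.54, adjusted P = 0.225). Its S group libraries varied more widely among themselves than those of Thy1 or Cd4. Napsa, an aspartic protease, averaged 33.3 ± 10.9 CPM in S group against 14.8 ± 2.95 CPM in O group (log2 fold change 1.17 ± 0.24, adjusted P = 0.225). Hyou1, a chaperone of the endoplasmic reticulum, averaged 16.99 ± 5.87 CPM in S group against 6.53 ± 2.52 CPM in O group (log2 fold change 1.39 ± 0.31, adjusted P = 0.225). Ephx1, which hydrolyses epoxides, rose by 1.34, Pik3ip1, an inhibitor of phosphoinositide 3-kinase, by 0.96, and Samd1 by 0.86 on the log2 scale. All 10 kept a P under 0.05 in each of 19 alternative fits, where the largest P was 0.00498, for Samd1.

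**Figure D3:**
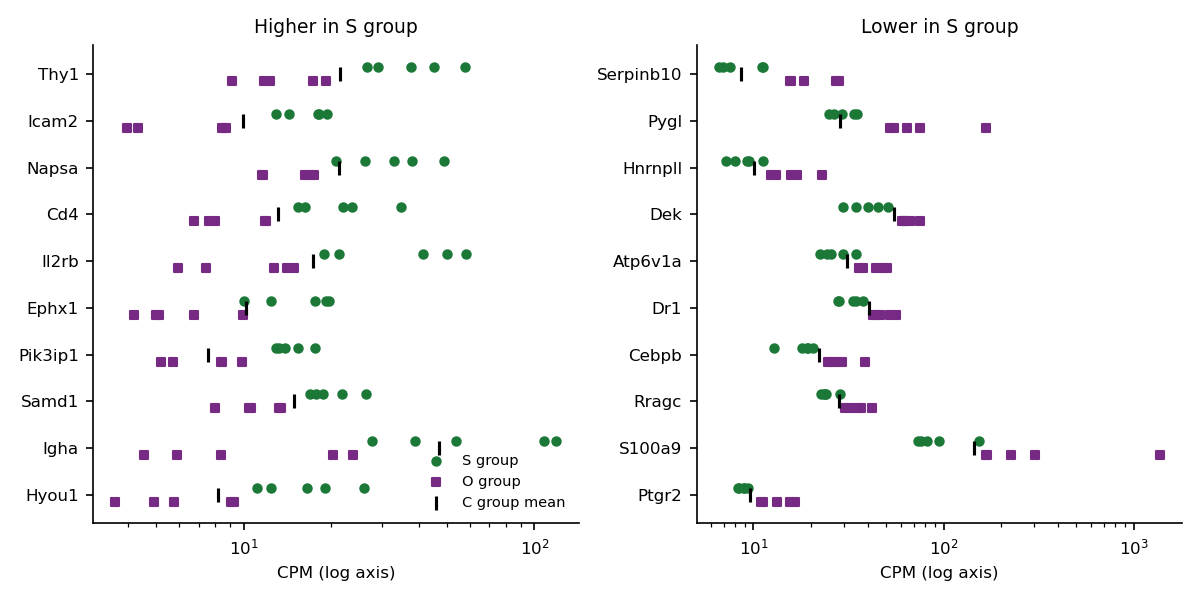
CPM on a log axis of the 10 genes most clearly higher and the 10 most clearly lower in S group, with a point for each of the 5 libraries of a group and a black tick at the C group mean, taken from all 15 platelet libraries normalized together. The points of the groups do not overlap for any of the 20 genes, which the rule required, and the S100a9 point at 1375 CPM is O group replicate 1.

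Most T cell markers were higher in S group. Of 15 T cell markers tested, 12 were higher and 0 lower in S group, beside 7.23% and 6.67% of all genes, with a median log2 fold change of 0.78. Cd5, a brake on T cell receptor signalling, was at 15.9, 9.58, 15.2, 9.52 and 19.9 CPM in S group, against 3.25, 5.498, 5.19, 4.08 and 5.98 CPM in O group (log2 fold change 1.53 ± 0.26, adjusted P = 0.225). No S group library reached down to the O group range. Cd6, a related scavenger receptor, averaged 14.8 ± 4.61 CPM in S group against 5.44 ± 2.53 CPM in O group (log2 fold change 1.43 ± 0.33, adjusted P = 0.225). Cd8b1, the beta chain of the CD8 co-receptor, averaged 19.1 ± 3.15 CPM in S group against 10.8 ± 2.51 CPM in O group (log2 fold change 0.81 ± 0.19, adjusted P = 0.225). The summed level of the list was 607, 496, 547, 592 and 579.8 CPM in S group, against 275, 388, 488, 398 and 555 CPM in O group. It was lowest in O group replicate 1 and overlapped between the groups. The list kept 12 higher genes without O group replicate 1 and 10 without O group replicates 1 and 4.

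Markers of NK cells and cytotoxic lymphocytes had a larger median. Of 14 tested, 8 were higher and 0 lower, with a median of 1.06. In this list 1 marker was lower without O group replicate 1 and also without replicates 1 and 4. Ctsw, a cathepsin of cytotoxic cells, was at 21.7, 10.01, 18.3, 6.35 and 17.00 CPM in S group, against 4.46, 2.13, 5.97, 2.14 and 3.54 CPM in O group (log2 fold change 2.03 ± 0.38, adjusted P = 0.225). Prf1, the pore-forming perforin, was at 15.8, 9.15, 21.2, 5.05 and 12.4 CPM in S group, against 2.57, 1.57, 6.68, 1.48 and 2.82 CPM in O group (log2 fold change 2.08 ± 0.47, adjusted P = 0.225). For Ctsw the groups did not overlap, and for Prf1 they did. Nkg7, a protein of cytotoxic granules, averaged 25.03 ± 7.31 CPM in S group against 11.9 ± 2.84 CPM in O group (log2 fold change 1.06 ± 0.24, adjusted P = 0.225). Gzma, a granzyme, was the most abundant of the list at 39.6 ± 13.6 CPM in S group against 18.6 ± 7.62 CPM in O group (log2 fold change 1.09 ± 0.32, adjusted P = 0.258). B cell markers had 10 of 14 higher, 0 lower and a median of 0.84. Cd79a and Cd79b, the signalling chains of the B cell receptor, averaged 203 ± 59.8 CPM in S group against 87.98 ± 28.1 CPM in O group (log2 fold change 1.21 ± 0.27, adjusted P = 0.225) and 125 ± 36.96 CPM in S group against 60.2 ± 19.1 CPM in O group (log2 fold change 1.06 ± 0.26, adjusted P = 0.225). The other B cell markers named by the rule were Fcrla (log2 fold change 0.83 ± 0.23, adjusted P = 0.239) and Fcer2a, the low-affinity receptor of immunoglobulin E (log2 fold change 1.21 ± 0.34, adjusted P = 0.25). The B cell count fell to 5 of 14 without O group replicates 1 and 4, with a median of 0.61. Of 5 plasma cell markers tested, 2 were higher, namely Jchain, the joining chain of secreted immunoglobulins (log2 fold change 1.97 ± 0.55, adjusted P = 0.246), and Sdc1, the syndecan of plasma cells (log2 fold change 1.69 ± 0.50, adjusted P = 0.258).

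MHC class II genes present peptides to helper T cells and are expressed by B cells, dendritic cells and macrophages. Their promoters share an upstream module in which an X box binds the RFX complex and a Y box binds NF-Y, and the coactivator CIITA acts on it. Of 11 list members, 8 were higher in S group and 0 lower, with a median log2 fold change of 0.61. The sequences below belong to members of the list that were higher. They run from 250 bases before to 50 bases after the annotated start in RefSeq (GRCm38.p6), 5′ to 3′ on the gene's strand, and capitals mark the Y box core (GATTGG, either strand) and, where present, a part of the X box (AGCAAC, either strand).
H2-DMb2, chr17:34144999-34145298, plus strand: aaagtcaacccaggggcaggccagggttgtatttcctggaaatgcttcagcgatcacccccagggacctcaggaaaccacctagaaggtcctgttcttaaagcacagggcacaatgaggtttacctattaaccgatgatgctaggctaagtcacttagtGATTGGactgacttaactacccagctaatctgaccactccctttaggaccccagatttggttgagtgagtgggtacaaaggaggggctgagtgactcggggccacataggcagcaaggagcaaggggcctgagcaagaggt
H2-Ob, chr17:34238655-34238954, plus strand: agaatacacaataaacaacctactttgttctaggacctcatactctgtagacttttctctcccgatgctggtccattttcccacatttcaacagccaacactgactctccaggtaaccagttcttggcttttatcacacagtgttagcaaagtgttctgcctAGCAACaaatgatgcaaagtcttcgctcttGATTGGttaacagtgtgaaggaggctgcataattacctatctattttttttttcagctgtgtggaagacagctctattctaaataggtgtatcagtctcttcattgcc
H2-Aa, chr17:34287774-34288073, minus strand: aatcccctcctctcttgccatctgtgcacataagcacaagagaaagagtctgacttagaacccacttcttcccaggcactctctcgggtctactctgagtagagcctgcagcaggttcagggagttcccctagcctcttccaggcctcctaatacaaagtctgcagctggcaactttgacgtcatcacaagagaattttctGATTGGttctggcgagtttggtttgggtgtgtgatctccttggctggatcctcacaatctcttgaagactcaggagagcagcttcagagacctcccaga
H2-Eb1, chr17:34305617-34305916, plus strand: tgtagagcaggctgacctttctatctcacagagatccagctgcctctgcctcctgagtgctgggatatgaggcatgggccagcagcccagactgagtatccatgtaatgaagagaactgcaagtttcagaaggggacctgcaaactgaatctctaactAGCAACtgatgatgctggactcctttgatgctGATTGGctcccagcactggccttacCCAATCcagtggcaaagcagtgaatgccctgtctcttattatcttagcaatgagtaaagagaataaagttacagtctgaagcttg
RefSeq entries were matched for 8 of the 11 members, with 9 promoters. The Y box letters were in all 8, and in 5292 of 32851 promoters of the same length (16.1%). The X box letters were in 4 of the 8, namely H2-Oa, H2-Ob, H2-Eb1 and H2-Eb2, and in 14.8% of all promoters. The Y box letters in the sequences shown begin 91, 58, 49 and 60 bases before the start of H2-DMb2, H2-Ob, H2-Aa and H2-Eb1, and H2-Eb1 has a second match on the reverse strand. These are matches of letters, and binding was not measured.

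Among these class II genes, H2-DMb2, a chain of the peptide-loading chaperone, was at 69.03, 57.1, 77.8, 55.3 and 99.1 CPM in S group, against 23.7, 24.2, 54.1, 25.9 and 41.5 CPM in O group (log2 fold change 1.08 ± 0.27, adjusted P = 0.225). Its groups did not overlap. H2-Ab1, the beta chain of the classical I-A molecule, was at 273, 181, 304, 166 and 319 CPM in S group, against 92.1, 84.3, 181, 66.7 and 126 CPM in O group (log2 fold change 1.18 ± 0.30, adjusted P = 0.225). Cd74, the invariant chain and the most abundant of the list, was at 901, 619, 909, 548 and 1034 CPM in S group, against 280.5, 354, 551, 255 and 443 CPM in O group (log2 fold change 1.09 ± 0.28, adjusted P = 0.225). H2-Ob, a chain of the loading inhibitor, averaged 104 ± 34.01 CPM in S group against 55.9 ± 19.1 CPM in O group (log2 fold change 0.89 ± 0.27, adjusted P = 0.265). These levels overlapped between the groups in all but H2-DMb2. The other members were looked at after their values were seen. H2-DMb1 (log2 fold change 1.08 ± 0.35, adjusted P = 0.275), H2-Oa (log2 fold change 0.52 ± 0.19, adjusted P = 0.303), H2-Aa (log2 fold change 0.61 ± 0.23, adjusted P = 0.309) and H2-Eb1 (log2 fold change 0.59 ± 0.24, adjusted P = 0.325) were higher as well. H2-DMa (log2 fold change 0.45 ± 0.21, adjusted P = 0.369), H2-Eb2 (log2 fold change 0.54 ± 0.29, adjusted P = 0.419) and Ciita (log2 fold change 0.11 ± 0.27, adjusted P = 0.887) did not pass the threshold. H2-Aa missed the threshold without S group replicate 1 or O group replicate 4, and H2-Eb1 without S group replicate 1 or 3 or O group replicate 4. Without O group replicates 1 and 4, 5 of the members were higher.

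MHC class I genes and their peptide-loading partners, which present peptides to cytotoxic T cells, had 8 of 20 members higher, 0 lower and a median of 0.35. Tapbp, or tapasin, averaged 85.4 ± 22.5 CPM in S group against 47.9 ± 5.804 CPM in O group (log2 fold change 0.83 ± 0.20, adjusted P = 0.225). Tap1, a subunit of the peptide transporter, averaged 59.8 ± 23.4 CPM in S group against 26.5 ± 11.8 CPM in O group (log2 fold change 1.17 ± 0.33, adjusted P = 0.25). H2-Q7 (log2 fold change 1.75 ± 0.43, adjusted P = 0.225) and H2-Q4 (log2 fold change 1.38 ± 0.34, adjusted P = 0.225) were also higher, but these class Ib genes are close copies between which reads may be split. B2m, the light chain of class I molecules and the most abundant member, was at 7377, 8999, 9533, 4841 and 4106 CPM in S group, against 3974, 11481, 9644, 15527 and 3152 CPM in O group (log2 fold change -0.33 ± 0.48, adjusted P = 0.786). B2m did not pass the threshold, and its groups overlapped.

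Immune adhesion and costimulation genes had 17 of 34 members higher and 0 lower, with a median of 0.76. Icam1, a ligand of leukocyte integrins, was at 12.4, 7.22, 14.5, 7.33 and 15.7 CPM in S group, against 5.27, 3.59, 5.58, 4.24 and 4.49 CPM in O group (log2 fold change 1.31 ± 0.26, adjusted P = 0.225). Its groups did not overlap, nor did those of Spn, the leukocyte sialophorin CD43, at 47.97 ± 25.3 CPM in S group against 17.02 ± 6.64 CPM in O group (log2 fold change 1.5005 ± 0.37, adjusted P = 0.225). Among interleukins and their receptors, 13 of 45 were higher and 1 was lower. The higher genes with the smallest P were all receptor chains, Il2rb, Il11ra1 (log2 fold change 1.08 ± 0.23, adjusted P = 0.225), Il2rg, the common gamma chain (log2 fold change 1.23 ± 0.28, adjusted P = 0.225), and Il21r (log2 fold change 1.09 ± 0.27, adjusted P = 0.225). The lower gene was the cytokine Il1b, at 15.1, 25.9, 20.3, 14.4 and 25.002 CPM in S group, against 115, 29.01, 35.9, 14.2 and 25.5 CPM in O group (log2 fold change -1.12 ± 0.47, adjusted P = 0.332). Its highest level was in O group replicate 1, and without O group replicates 1 and 4 the comparison gave a log2 fold change of -0.60 (past the threshold). Il1b missed the threshold without S group replicate 1, 3, 4 or 5 or O group replicate 1. Higher interleukins and receptors numbered 7 (without S group replicate 5).

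Of 33 chemokines and chemokine receptors, 10 were higher and 1 was lower. Ccr7, which guides naive lymphocytes to lymph nodes, was at 52.9, 31.97, 46.9, 25.7 and 62.2 CPM in S group, against 15.8, 12.8, 26.6, 7.604 and 20.1 CPM in O group (log2 fold change 1.40 ± 0.33, adjusted P = 0.225). The groups overlapped for Ccr7, and also for Cxcr5, the receptor that guides B cells to follicles, at 33.8 ± 10.1 CPM in S group against 16.2 ± 5.17 CPM in O group (log2 fold change 1.06 ± 0.26, adjusted P = 0.225). Cxcr6 (log2 fold change 1.70 ± 0.50, adjusted P = 0.258) was higher at group means under 4 CPM, and Ccr1, a receptor of myeloid cells, was lower (log2 fold change -1.59 ± 0.72, adjusted P = 0.356). Ccr1 gave a log2 fold change of -0.14 (short of the threshold) without O group replicate 1, and it missed the threshold without S group replicate 1, 2, 3, 4 or 5 or O group replicate 1. Lower chemokine genes numbered 3 (without O group replicate 5) and 4 (without O group replicate 4). Of 28 TNF superfamily genes, 9 were higher and 0 lower. They include Tnfrsf25 (log2 fold change 1.56 ± 0.36, adjusted P = 0.225), Cd27, a costimulatory receptor (log2 fold change 1.12 ± 0.30, adjusted P = 0.235), Ltb, or lymphotoxin beta (log2 fold change 0.64 ± 0.19, adjusted P = 0.26), and Cd40lg, the helper signal to B cells (log2 fold change 1.15 ± 0.39, adjusted P = 0.286). Higher TNF superfamily genes numbered 5 (without S group replicate 5 or O group replicate 2 or 4).

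Monocyte and macrophage markers had 4 of 15 members higher and 0 lower, and 1 was lower without O group replicates 1 and 4 or without replicate 1 alone. Ace, the angiotensin-converting enzyme, was at 36.4, 29.5, 48.6, 27.4 and 65.5 CPM in S group, against 18.1, 12.8, 25.5, 16.7 and 20.8 CPM in O group (log2 fold change 1.14 ± 0.26, adjusted P = 0.225). Its groups did not overlap. Adgre1, the antigen F4/80 (log2 fold change 0.81 ± 0.33, adjusted P = 0.322), Cx3cr1, the fractalkine receptor (log2 fold change 1.12 ± 0.46, adjusted P = 0.325), and Csf1r, the receptor of macrophage colony-stimulating factor (log2 fold change 0.95 ± 0.44, adjusted P = 0.359), were higher with overlapping groups. At least 1 of these 3 missed the threshold without S group replicate 1, 3 or 5 or O group replicate 2, 4 or 5. Higher monocyte markers numbered 1 (without S group replicate 5 or O group replicate 4 or 5), 2 (without S group replicate 1 or 3 or O group replicate 2), 7 (without O group replicate 3) and 9 (without S group replicate 4). Complement and Fc gamma receptor genes divided, with 7 of 19 higher and 2 lower. The chains of the complement starter C1q, C1qa (log2 fold change 1.69 ± 0.56, adjusted P = 0.279), C1qb (log2 fold change 1.63 ± 0.52, adjusted P = 0.269) and C1qc (log2 fold change 1.74 ± 0.48, adjusted P = 0.238), rose from levels under 2 CPM in O group, and the count of higher complement and Fc genes was 4 (without S group replicate 1 or 5 or O group replicate 2 or 4), with C1qa short of the threshold without S group replicate 1. C3ar1, the receptor of the C3a fragment, was lower (log2 fold change -2.37 ± 0.77, adjusted P = 0.275), and so was Cd59a, which blocks the membrane attack complex, at 59.1, 63.1, 75.7, 46.3 and 45.5 CPM in S group, against 709, 117, 80.1, 602 and 29.3 CPM in O group (log2 fold change -2.41 ± 0.72, adjusted P = 0.26). The Cd59a values of O group replicates 1 and 4 lie far above all others, and without these libraries the comparison gave a log2 fold change of -0.41 (short of the threshold). C3ar1 gave a log2 fold change of -0.15 (short of the threshold) without them, and 0 complement and Fc genes were then lower. Of 11 dendritic cell markers, 2 were higher and 1 was lower, beside 7.23% and 6.67% of all genes. These counts were 1 and 0 without O group replicates 1 and 4, and with single libraries left out the higher ones ran from 1 to 3.

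Lysosomal genes had 14 of 44 members higher and 1 lower, with a median of 0.26. Arsa, an arylsulfatase that degrades sulfatides, averaged 6.88 ± 1.599 CPM in S group against 2.78 ± 0.9303 CPM in O group (log2 fold change 1.29 ± 0.27, adjusted P = 0.225). Arsb, which degrades glycosaminoglycans, was higher as well (log2 fold change 1.32 ± 0.34, adjusted P = 0.225). The lower member was Atp6v1a, the catalytic subunit of the proton pump, at 25.6, 29.8, 22.5, 34.7 and 24.5 CPM in S group, against 50.4, 43.99, 35.9, 37.7 and 47.97 CPM in O group (log2 fold change -0.66 ± 0.17, adjusted P = 0.225). Its groups did not overlap, in the direction opposite to Arsa and Arsb. Higher lysosomal genes numbered 6 (without O group replicate 2), 7 (without S group replicate 5), 9 (without O group replicate 4) and 22 (without O group replicate 1), and lower ones 6 (without O group replicate 5). Chaperones and genes of the unfolded protein response had 4 of 22 higher and 0 lower, which are Herpud1 (log2 fold change 0.63 ± 0.18, adjusted P = 0.258), Pdia4 (log2 fold change 0.85 ± 0.26, adjusted P = 0.26), Sdf2l1 (log2 fold change 0.93 ± 0.38, adjusted P = 0.322) and Hsp90b1 (log2 fold change 0.74 ± 0.33, adjusted P = 0.347). All 4 act in the endoplasmic reticulum. The counts of higher genes in these lists stand beside the 7.23% of all genes that were higher. Sdf2l1 and Hsp90b1 each missed the threshold without S group replicate 1, 3 or 5 or O group replicate 2, 3, 4 or 5. Higher chaperones numbered 2 (without S group replicate 1, 3 or 5 or O group replicate 3, 4 or 5) and 9 (without O group replicate 1), and 11 without O group replicates 1 and 4 together. Of all genes, 8.51% were higher without O group replicate 1 and 6.71% without O group replicates 1 and 4.

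The 10 genes most clearly lower in S group by the same rule were Serpinb10, Pygl, Hnrnpll, Dek, Atp6v1a, Dr1, Cebpb, Rragc, S100a9 and Ptgr2. Serpinb10, a serine protease inhibitor of blood-forming cells (chr1:107529003-107549271 in GRCm38), was at 6.89, 11.3, 6.58, 7.56 and 11.1 CPM in S group, against 27.2, 18.5, 15.7, 28.3 and 15.6 CPM in O group (log2 fold change -1.27 ± 0.24, adjusted P = 0.225). Pygl, a glycogen phosphorylase (chr12:70190811-70231488), was at 26.6, 34.9, 24.9, 29.4 and 33.8 CPM in S group, against 168, 64.3, 52.2, 75.2 and 55.1 CPM in O group (log2 fold change -1.47 ± 0.31, adjusted P = 0.225). For Pygl the highest value was in O group replicate 1, and without O group replicates 1 and 4 the comparison gave a log2 fold change of -0.96 (past the threshold). S100a9, an alarmin of neutrophils and monocytes that is also found in platelets, was at 82.1, 154, 76.03, 94.4 and 73.3 CPM in S group, against 1375, 302, 226, 168 and 169 CPM in O group (log2 fold change -2.22 ± 0.59, adjusted P = 0.225). O group replicate 1 held the highest S100a9 level here too, and without O group replicates 1 and 4 the comparison gave a log2 fold change of -1.30 (past the threshold). Dek, a chromatin protein, averaged 40.1 ± 8.598 CPM in S group against 65.4 ± 5.89 CPM in O group (log2 fold change -0.70 ± 0.17, adjusted P = 0.225). Hnrnpll, a splicing factor, averaged 9.01 ± 1.55 CPM in S group against 16.2 ± 4.17 CPM in O group (log2 fold change -0.84 ± 0.20, adjusted P = 0.225). Dr1, a repressor of transcription, changed by -0.58, Cebpb, a transcription factor of myeloid cells, by -0.69, Rragc, a GTPase of amino acid sensing, by -0.53, and Ptgr2, a prostaglandin reductase, by -0.62 on the log2 scale. In these 4 genes the change was under 2-fold. Of the 10 genes, 9 kept a P under 0.05 in each of 19 alternative fits, and Cebpb missed it when all 3 platelet groups were fitted together.

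Most neutrophil markers were lower in S group, with 7 of 11 lower (4 without O group replicates 1 and 4), 0 higher and a median of -2.22. S100a8, the partner of S100a9, was at 57.7, 111, 47.4, 62.2 and 54.7 CPM in S group, against 1309.5, 209, 164, 115 and 131 CPM in O group (log2 fold change -2.53 ± 0.67, adjusted P = 0.225). Its groups did not overlap, and without O group replicates 1 and 4 the comparison gave a log2 fold change of -1.36 (past the threshold). The granule genes Ngp (log2 fold change -3.93 ± 1.27, adjusted P = 0.27) and Lcn2, or lipocalin 2 (log2 fold change -3.06 ± 1.09, adjusted P = 0.301), rest more on a single library. Ngp was at 1.88, 1.93, 0.592, 1.16 and 2.37 CPM in S group, against 114, 3.98, 3.46, 0.357 and 3.06 CPM in O group, and without O group replicate 1 the comparison gave a log2 fold change of -0.78 (short of the threshold). Without O group replicate 1, Lcn2 gave a log2 fold change of -0.13 (short of the threshold). The list had a median of -0.13, with 2 lower and 1 higher, without O group replicate 1, and a median of -0.32 without O group replicates 1 and 4. Lower neutrophil markers numbered 2 (without O group replicate 1) and 4 (without S group replicate 1, 3 or 4). Neutrophil content was not measured on its own, and its part in these values was not tested.

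The lower calls among erythroid and mitotic genes rested mainly on O group replicate 1. Of 17 erythroid markers, 7 were lower and 0 higher, with a median of -1.88. Rhag, a subunit of the Rh complex of red cells, was at 0.861, 0.787, 1.26, 1.16 and 1.79 CPM in S group, against 115, 1.01, 3.54, 3.06 and 0.8500 CPM in O group (log2 fold change -4.35 ± 1.33, adjusted P = 0.265). Its high level was in O group replicate 1, and without that library the comparison gave a log2 fold change of -0.85 (short of the threshold). Ermap, an erythroid membrane protein (log2 fold change -3.88 ± 1.22, adjusted P = 0.269), gave a log2 fold change of -0.70 (short of the threshold) without it. Lower erythroid markers numbered 0 (without O group replicate 1), 3 (without S group replicate 3 or 4) and 4 (without S group replicate 1), and the median without O group replicate 1 was 0.28. The defining red cell genes did not pass the threshold, with Hba-a1 at 70384, 176544, 119484, 65925 and 84655 CPM in S group, against 502128, 30896, 142932, 30777 and 82209.8 CPM in O group (log2 fold change -0.61 ± 0.84, adjusted P = 0.769). Hba-a1 has a near-identical copy, so its reads may be split. Of 29 mitotic cell cycle genes, 15 were lower and 0 higher. Mki67, a protein of dividing cells, was at 8.39, 9.66, 7.100, 10.9 and 15.7 CPM in S group, against 701, 12.1, 15.3, 18.5 and 11.5 CPM in O group (log2 fold change -3.87 ± 1.20, adjusted P = 0.269), and without O group replicate 1 the comparison gave a log2 fold change of -0.50 (short of the threshold). Top2a, a topoisomerase of dividing cells, was at 6.67, 8.94, 5.62, 8.54 and 5.79 CPM in S group, against 28.3, 10.9, 8.56, 13.2 and 11.2 CPM in O group (log2 fold change -1.01 ± 0.31, adjusted P = 0.268), and gave a log2 fold change of -0.66 (past the threshold) without it. Lower mitotic genes numbered 6 (without O group replicate 1). Without O group replicates 1 and 4, 2 mitotic genes were lower and the median was -0.29.

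Nuclear genes of oxidative phosphorylation, which build the respiratory chain, had 36 of 78 members lower and 0 higher in S group, with a median of -0.70. Ndufc2, a subunit of complex I, averaged 5.57 ± 0.887 CPM in S group against 8.65 ± 1.56 CPM in O group (log2 fold change -0.63 ± 0.19, adjusted P = 0.26). Ndufv2, also of complex I, averaged 20.2 ± 2.33 CPM in S group against 30.4 ± 9.66 CPM in O group (log2 fold change -0.59 ± 0.20, adjusted P = 0.29). The groups did not overlap in either, and without O group replicates 1 and 4 Ndufc2 gave a log2 fold change of -0.51 (past the threshold) and Ndufv2 a log2 fold change of -0.34 (short of the threshold). Uqcrq, a subunit of complex III, was at 39.97, 43.3, 44.3, 37.1 and 26.2 CPM in S group, against 279, 48.3, 48.9, 168 and 35.2 CPM in O group (log2 fold change -1.60 ± 0.52, adjusted P = 0.275), which rests on O group replicates 1 and 4, and gave a log2 fold change of -0.23 (short of the threshold) without them. The count of lower genes was 10 (without O group replicate 1), 12 (without S group replicate 5), 13 (without S group replicate 4) and 23 (without S group replicate 1), and 1 without O group replicates 1 and 4 together, where the median was -0.12. Mitochondrially encoded mRNAs had 0 of 13 lower and 0 higher. Proteasome subunits had 5 of 37 lower, such as Psmd14 (log2 fold change -0.49 ± 0.15, adjusted P = 0.267) and Psmd1 (log2 fold change -0.59 ± 0.22, adjusted P = 0.309), and 0 higher, and the count of lower ones was 3 (without S group replicate 1 or 3 or O group replicate 1) and 8 (without O group replicate 2, 3 or 5). Without O group replicates 1 and 4 together, 2 proteasome subunits were lower, Psmd14 gave a log2 fold change of -0.39 (past the threshold) and Psmd1 gave a log2 fold change of -0.27 (short of the threshold). Of all genes, 6.67% were lower in the main fit and 4.82% without O group replicates 1 and 4. Cytosolic ribosomal proteins had 5 of 83 lower and 0 higher, a share near that of all genes, and many have pseudogene copies. Their count of lower genes was 1 (without S group replicate 5), 2 (without S group replicate 4 or O group replicate 1), 3 (without S group replicate 3 or O group replicate 4), 8 (without O group replicate 3), 11 (without O group replicate 2) and 15 (without O group replicate 5), and it was 0 without O group replicates 1 and 4 together.

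**Figure D4:**
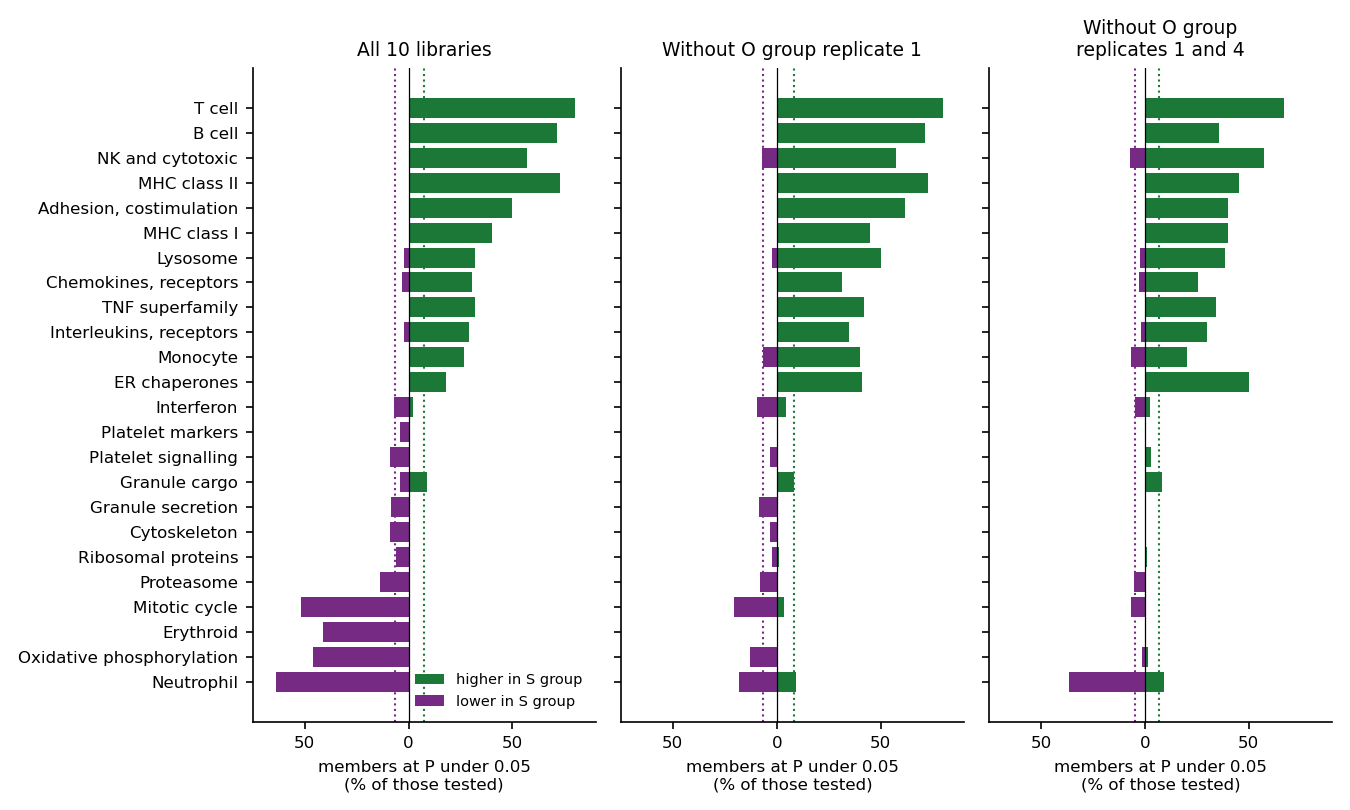
Percent of the tested members of each gene list that were higher (right) or lower (left) in S group at an unadjusted P under 0.05, in all 10 libraries, without O group replicate 1, and without O group replicates 1 and 4, with dotted lines at the percent of all genes. The lymphocyte, MHC and adhesion lists stay above the line for higher genes in the 3 panels, while the lower shares of the erythroid, mitotic and oxidative phosphorylation lists shrink from the left panel to the right.

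Of 25 platelet and megakaryocyte markers tested, 0 were higher and 1 was lower, with a median of -0.28, which became 0.15 without O group replicates 1 and 4. Pf4, the chemokine platelet factor 4, was at 4480.2, 4629, 6403, 3154 and 2476 CPM in S group, against 11086, 6914, 3797, 12458 and 1588 CPM in O group (log2 fold change -0.76 ± 0.52, adjusted P = 0.517). Ppbp, the precursor of another granule chemokine, was at 5804, 5519, 8269, 3832 and 2856 CPM in S group, against 6550.5, 7693, 4049, 12328 and 2086 CPM in O group (log2 fold change -0.32 ± 0.47, adjusted P = 0.794). Both ranges overlapped. The lower marker was F2rl3, the thrombin receptor PAR4, at 5.81, 6.37, 7.32, 6.53 and 7.95 CPM in S group, against 43.1, 7.91, 5.58, 34.1 and 2.58 CPM in O group (log2 fold change -1.44 ± 0.63, adjusted P = 0.344), and without O group replicates 1 and 4 the comparison gave a log2 fold change of 0.32 (short of the threshold). F2rl3 missed the threshold without S group replicate 1, 2, 3, 4 or 5 or O group replicate 1 or 4, and 3 platelet markers were lower without O group replicate 5. Platelet receptors and signalling genes had 3 of 33 lower and 0 higher, and genes of granule biogenesis and secretion had 2 of 23 lower and 0 higher. With single libraries left out, the lower ones numbered 1 (without S group replicate 1, 2 or 4 or O group replicate 1) and 7 (without O group replicate 5) for the former and 4 (without S group replicate 5 or O group replicate 5) for the latter. Leaving out O group replicates 1 and 4 together gave 0 and 0 lower genes. Among 23 genes of granule cargo, growth factors and coagulation, 2 were higher and 1 was lower. Apoe, a carrier of lipids, was at 135, 87.04, 117, 91.2 and 75.7 CPM in S group, against 68.02, 45.1, 74.4, 38.7 and 49.8 CPM in O group (log2 fold change 0.87 ± 0.23, adjusted P = 0.225), with groups that did not overlap. Pdgfa, a platelet-derived growth factor chain, was at 48.3, 54.3, 73.00, 38.5 and 37.6 CPM in S group, against 6.76, 43.4, 33.4, 20.2 and 15.9 CPM in O group (log2 fold change 1.07 ± 0.40, adjusted P = 0.307). F13a1, the coagulation factor XIII subunit, was at 282, 336, 401, 238 and 331 CPM in S group, against 675, 648, 309, 856 and 214 CPM in O group (log2 fold change -0.77 ± 0.35, adjusted P = 0.358). Pdgfa missed the threshold without S group replicate 3 or O group replicate 5, and F13a1 without S group replicate 1, 2, 4 or 5 or O group replicate 1, 2 or 4, while 4 (without O group replicate 5) of the cargo list were lower. F13a1 gave a log2 fold change of -0.33 (short of the threshold) without O group replicates 1 and 4, and 0 of the cargo list were then lower. Of 33 cytoskeleton genes, 3 were lower and 0 higher. They were Dstn, or destrin (log2 fold change -2.42 ± 0.73, adjusted P = 0.26), Tuba4a, an alpha tubulin (log2 fold change -1.63 ± 0.60, adjusted P = 0.304), and Flna, or filamin A (log2 fold change -1.27 ± 0.50, adjusted P = 0.319), and 0 of the list were lower without O group replicates 1 and 4. Tuba4a and Flna each missed the threshold without S group replicate 4 or 5 or O group replicate 1 or 4. Flna also missed it without S group replicate 1 or 2. Lower cytoskeleton genes numbered 1 (without S group replicate 4 or 5 or O group replicate 1 or 4) and 8 (without O group replicate 5). All these counts of lower genes stand beside the 6.67% of all genes that were lower.

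Of 10 melanocyte and melanoma markers, only Pmel and Mitf passed the filter on low counts. Pmel, a protein of pigment granules, was at 1.94, 1.57, 2.07, 1.43 and 5.11 CPM in S group, against 1.62, 1.46, 2.04, 0.5103 and 2.99 CPM in O group (log2 fold change 0.48 ± 0.48, adjusted P = 0.665). Mitf, which mast cells and macrophages also express, was at 0.538, 0.715, 0.3698, 1.16 and 1.000 CPM in S group, against 2.03, 1.68, 1.34, 1.02 and 1.46 CPM in O group (log2 fold change -0.95 ± 0.37, adjusted P = 0.315). Mitf missed the threshold without S group replicate 1 or O group replicate 2. Each of the other 8 had 0 to 4 counts in any library. Liver and endothelial lists were tested with 1 and 6 genes. In them, 1 and 0 were higher and 0 and 0 lower, and of basophil and mast cell markers 1 was tested and 0 was higher. With single libraries left out, the higher genes numbered 0 to 1 in the liver list and 0 to 1 in the basophil list. The liver gene missed the threshold in 7 of the 10 such fits, with the smallest difference without S group replicate 4.

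Stress and signalling lists had calls in both directions, to be read beside the 7.23% of all genes that were higher and the 6.67% that were lower. Of 43 genes of the type I interferon response, 1 was higher, Ly6e, and 3 were lower, Oas3 (log2 fold change -0.71 ± 0.28, adjusted P = 0.319), Ifit3b (log2 fold change -0.71 ± 0.30, adjusted P = 0.332) and Eif2ak2 (log2 fold change -0.45 ± 0.21, adjusted P = 0.356). At least 1 of these 3 missed the threshold whichever library was left out. Without O group replicates 1 and 4, 2 interferon genes were lower, while Oas3 gave a log2 fold change of -0.47 (short of the threshold) and Ifit3b a log2 fold change of -0.61 (short of the threshold). With single libraries left out, the lower interferon genes numbered 0 (without S group replicate 1 or 3 or O group replicate 3), 1 (without O group replicate 4) and 5 (without S group replicate 2) and the higher ones 3 (without O group replicate 2 or 3). Of 23 p53 targets, 2 were higher and 3 lower, with Cdkn1a, the cell cycle inhibitor p21, at 18.9, 22.3, 32.6, 20.1 and 12.5 CPM in S group, against 15.01, 9.82, 4.64, 6.23 and 7.82 CPM in O group (log2 fold change 1.30 ± 0.32, adjusted P = 0.225). Sesn2, a stress sensor, averaged 4.204 ± 0.377 CPM in S group against 9.24 ± 6.296 CPM in O group (log2 fold change -1.11 ± 0.35, adjusted P = 0.269). Genes of Toll-like receptors and NF-kB numbered 3 higher and 1 lower of 34, with Unc93b1, a chaperone of endosomal Toll-like receptors (log2 fold change 0.91 ± 0.32, adjusted P = 0.296), and Tlr9 (log2 fold change 0.91 ± 0.33, adjusted P = 0.302) among the higher. The list of interleukin 1 family and inflammasome genes had 2 higher and 2 lower of 18, immediate early genes 2 and 1 of 27, and hypoxia genes 1 and 0 of 14. Genes of the Bcl-2 family and caspases had 1 higher and 3 lower of 23, autophagy genes 1 and 1 of 23, and chromatin regulators 1 and 2 of 42. For iron and heme handling these counts were 0 and 2 of 15, for eicosanoid synthesis 0 and 1 of 10, for cholesterol synthesis 0 and 3 of 16, and for glycolysis 1 and 3 of 18. These counts are small and moved with single libraries. Lower p53 targets numbered 1 (without S group replicate 1, 2 or 4), lower inflammasome genes 4 (without O group replicate 4), lower immediate early genes 3 (without O group replicate 1), lower Bcl-2 family and caspase genes 1 (without S group replicate 4), and chromatin regulators 3 (without S group replicate 2 or O group replicate 5) higher and 5 (without S group replicate 5) lower. Lower cholesterol genes numbered 0 (without S group replicate 2 or 3 or O group replicate 1 or 4) and 1 (without S group replicate 1 or 5), and higher ones 5 (without O group replicate 1). Without O group replicates 1 and 4, the lower genes numbered 2 for p53 targets, 1 for Toll-like receptors and NF-kB, 1 for the inflammasome list, 3 for immediate early genes, 2 for the Bcl-2 family and caspases, 0 for autophagy and 2 for chromatin regulators. They numbered 0 for iron and heme, 1 for eicosanoids, 1 for cholesterol and 2 for glycolysis.

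Of 36 genes that the study had picked for qPCR, 35 were tested, and 29 were higher and 4 lower in S group, with a median of 1.12. The study chose this panel on these same samples, so the count is not independent evidence of a direction. The study also measured the panel by qPCR in a validation cohort of mice. It reported that most genes followed the sequencing data there, while S100a9, Clca3a1, F13a1, Ifng and Prf1 were not significant. The lower ones were S100a9, Clec4g (log2 fold change -2.43 ± 0.65, adjusted P = 0.23), Clca3a1 (log2 fold change -2.61 ± 0.71, adjusted P = 0.235) and F13a1. Clca3a1 was at 27.9, 33.5, 42.01, 20.03 and 30.6 CPM in S group, against 393, 92.1, 40.1, 393 and 21.8 CPM in O group, highest in O group replicates 1 and 4, and gave a log2 fold change of -0.77 (short of the threshold) without them, where Clec4g gave a log2 fold change of -0.82 (short of the threshold) and 1 of the panel was lower. Of the genes in the study's score of early against macroscopic tumor, Cd4 and Ccr7 are given above. Ly6e, an interferon-induced surface protein of lymphocytes, was at 353, 257, 364, 207 and 369.6 CPM in S group, against 133, 109, 207, 108 and 161 CPM in O group (log2 fold change 1.11 ± 0.25, adjusted P = 0.225). Kmt2d, a histone methyltransferase, was at 70.96, 55.1, 74.3, 94.6 and 239 CPM in S group, against 71.3, 37.98, 61.4, 45.8 and 86.8 CPM in O group (log2 fold change 0.82 ± 0.39, adjusted P = 0.371), with its highest value in S group replicate 5. Kmt2d passed the threshold without S group replicate 1, 2 or 3 or O group replicate 5. In the study's qPCR cohort, Kmt2d did not differ significantly between early and macroscopic tumors.

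Of the 5 genes that the study used as qPCR references, 1 was higher and 1 was lower. Gapdh was at 3.17, 1.86, 71.1, 2.19 and 5.63 CPM in S group, against 4.46, 1.18, 2.36, 3.06 and 0.714 CPM in O group (log2 fold change 2.89 ± 1.04, adjusted P = 0.302), with S group replicate 3 far above the rest, and missed the threshold without S group replicate 3. Gapdh has many near-identical pseudogenes, so its count is uncertain. Gnas, a stimulatory G protein subunit, was at 114, 221, 232, 103 and 169.9 CPM in S group, against 438, 293, 159, 511 and 159 CPM in O group (log2 fold change -0.89 ± 0.38, adjusted P = 0.332), and missed the threshold without S group replicate 1, 4 or 5 or O group replicate 1 or 4. Gnas gave a log2 fold change of -0.31 (short of the threshold) without O group replicates 1 and 4. Actb averaged 2835 ± 455 CPM in S group against 2532 ± 315 CPM in O group (log2 fold change 0.16 ± 0.25, adjusted P = 0.795). Oaz1 averaged 1724 ± 431 CPM in S group against 2349 ± 2180.1 CPM in O group (log2 fold change -0.45 ± 0.49, adjusted P = 0.699) and Gusb 11.2 ± 4.31 CPM in S group against 9.18 ± 4.998 CPM in O group (log2 fold change 0.31 ± 0.35, adjusted P = 0.705). These 3 did not pass the threshold, though Gusb gave a log2 fold change of 0.66 (past the threshold) without O group replicate 1.

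Levels in C group lay mostly between those of S group and O group. With all 15 platelet libraries normalized together, the C group mean was between the other means for 897 of the 962 higher genes and for 763 of the 887 lower genes. On the scale of log2(CPM + 1) it was nearer to the O group mean for 608 of the higher genes and nearer to the S group mean for 651 of the lower genes. S group and O group were each used to choose these genes, so the position is a description. The C group mean was 21.4 ± 5.02 CPM for Thy1, 17.3 ± 4.76 CPM for Il2rb, 46.9 ± 34.9 CPM for Igha, 28.7 ± 12.4 CPM for Pygl and 8.59 ± 3.69 CPM for Serpinb10. On this joint scale Pygl averaged 29.2 CPM in S group, against 81 CPM for O group, and was the 1 of the top 20 genes with a C group mean outside that range.

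The same pair of groups was compared in PBMCs, the mononuclear leukocytes of the blood, where 651 of 14686 genes (4.43%) were higher and 1145 (7.8%) lower for early tumors, and none passed the adjusted threshold in edgeR's test. Of the genes higher in platelets, 903 were tested in PBMCs, where 127 (14.1%) were higher and 9 lower. Of the genes lower in platelets, 855 were tested, where 251 (29.4%) were lower and 6 higher. PBMCs were taken from the same blood after the platelets had been drawn off, and O group pools had the same numbers of mice in both tissues. Platelet and PBMC libraries can thus share mice, and these shares do not come from independent animals. T cell markers were higher in PBMCs as well, 13 of 15, with a smaller median of 0.36, and so were NK and cytotoxic markers, 12 of 14, with a median of 0.49. B cell markers (1 of 14) and MHC class II genes (1 of 11) had 1 higher gene each. Erythroid markers were lower for 17 of 17 and oxidative phosphorylation genes for 30 of 79.

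The difference between the tissues was tested as an interaction that treats the 20 libraries as independent. It had an unadjusted P under 0.05 for 1955 of 15896 genes (12.3%), 826 with a more positive and 1129 with a more negative change in platelets, and none passed the adjusted threshold in edgeR's test (smallest Benjamini-Hochberg value 0.171). With the replicate number within a group as a block shared by the tissues, 2111 genes had an unadjusted P under 0.05 and 1 passed the adjusted threshold. Whether pools of the same number held the same mice is not stated in the sources used here. The difference between the tissues was fitted on all 20 libraries normalized together, so that it is not the exact difference of the separate fold changes. Napsa was higher in platelets as given above, and in PBMCs it had a log2 fold change of -0.06 ± 0.07 (adjusted P = 0.759), so that the changes differed by 1.11 ± 0.24 (adjusted P = 0.171). For Icam1 the PBMC comparison gave a log2 fold change of -0.07 ± 0.09 (adjusted P = 0.762), and the changes differed by 1.26 ± 0.26 (adjusted P = 0.171). For Dek it gave a log2 fold change of -0.04 ± 0.07 (adjusted P = 0.851), and the changes differed by -0.79 ± 0.18 (adjusted P = 0.172). For S100a9 it gave a log2 fold change of -1.31 ± 1.07 (adjusted P = 0.62), and the changes differed by -1.04 ± 1.23 (adjusted P = 0.759). The interaction had a P under 0.05 for 10 of the top 10 higher and 7 of the top 10 lower genes, but they were chosen for their platelet change, so these values are not independent of the choice. At an unadjusted P under 0.05, 5 of the top 10 higher genes were also higher in PBMCs. Of the top 10 lower genes, 4 were also lower there. Icam1 is in neither top 10.

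**Figure D5:**
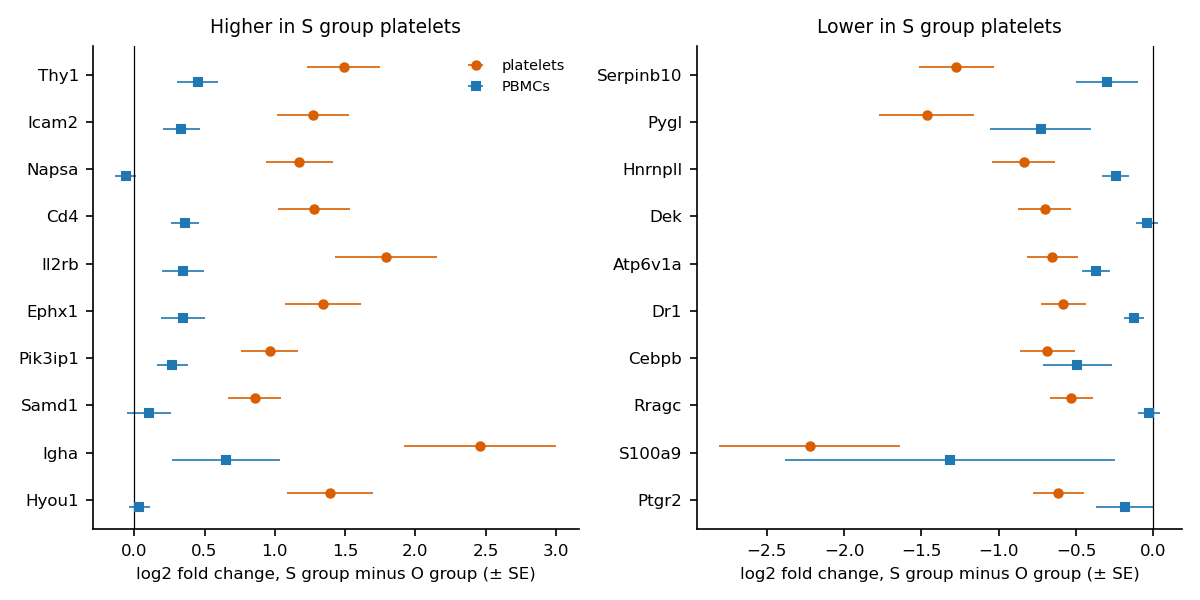
Log2 fold changes of S group relative to O group in platelets and in PBMCs for the top 10 higher genes (left) and the top 10 lower genes (right), with bars for the standard error. The platelet points of the higher genes run from 0.86 to 2.46, and their PBMC points lie nearer to 0.

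The called genes differed in sequence composition. Higher genes had a median GC content of 53.03% and a median exon length, over all exons of a gene merged, of 3618 bases. These were 46.3% and 4097 bases for lower genes, and 49.6% and 4194 bases for all tested genes. From the 20% of genes with the lowest GC content to the 20% with the highest, the share of higher genes went from 2.26% to 11.8% and the share of lower genes from 11.6% to 3.95%. Without O group replicate 1 the shares were 2.79% and 13.6% for higher genes and 14.1% and 2.12% for lower genes. In each library, the mean deviation of log2(CPM + 1) from its mean over the 10 libraries was compared between these classes. The difference, highest minus lowest GC class, was 0.274, 0.083, 0.335, 0.042 and -0.146 in S group, against -0.052, -0.171, -0.136, -0.035 and -0.193 in O group. S group replicate 5 lay within the range of O group, and the other 4 lay above it. The part of GC content in the calls was not tested. The median level of higher genes was 6.67 CPM and that of lower genes 18.5 CPM, against 9.76 CPM for all genes tested.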

How the data were processed

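Poly-A selected RNA of platelet and PBMC pools was sequenced on an Illumina NovaSeq, from a kit that does not mark strand. The authors removed reads with adapter, poly-N or low quality, aligned the rest with HISAT2 2.0.5 and deposited raw counts per gene from featureCounts 1.5.0-p3. The processing notes name the build mm9, while the positions given here are GRCm38 positions from GENCODE M21, found for 54495 of 54532 gene identifiers.

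From the deposited counts, S group and O group platelet libraries were compared alone with edgeR 4.0.16 (filterByExpr, TMM, glmQLFit and glmQLFTest) in R 4.3.3, two-sided and without covariates. CPM are scaled by TMM, and standard errors were taken as |log2 fold change| over the root of the F statistic. The threshold was an unadjusted P of 0.05, with Benjamini-Hochberg adjustment beside it. The interaction with PBMCs used 20 libraries and no term for mice that the tissues may share, with a block as an alternative. Single values per library were compared by exact permutation. The scripts were tested on simulated data.

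Named genes were the 10 with the smallest P in each direction, with groups that do not overlap, at least 10 CPM on average and a symbol that is no predicted gene or pseudogene, plus up to 4 members in each direction and the most abundant member of the lists described, the study's qPCR and reference genes as the text gives them, and defining markers. A gene outside this rule is said to be so, and some genes that the rule names are not reported here. The gene lists and the comparison were chosen with earlier results of these data known. Alternatives were DESeq2 1.42.0, RLE factors, library sizes without hemoglobin, no filter, voom (limma 3.58.1), the replicate number as a block, all 3 platelet groups in a single fit and each library left out. Leaving out O group replicates 1 and 4 together was added after seeing the data. Replicates are pools of mice from experiments that the study describes as independent, and P values measure the spread between pools. Tissues were taken from titles and source names, since a cell type tag calls the platelet libraries PBMC. The labels give no batch.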

Additional observations from a re-analysis of the deposited data

Results flagged for a closer look

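In 22 of 156 groups of 5 libraries that were checked, the highest or lowest library lay far from the others (gap over range, Dixon's 95% limit). The limit is set to flag about 1 in 20 groups of independent, normally spread values. The groups checked here share genes and libraries, so 22 of 156 cannot be read against that rate. For the gene lists, the summed CPM of O group replicate 1 was high for neutrophil markers (3891, others 329 to 614), erythroid markers (779608, others 47536 to 226437), mitotic genes (2161, others 276 to 358), iron and heme genes (60659.6, others 10064 to 23193), autophagy genes (9669.9, others 2193 to 4314) and interferon genes (8331, others 2307 to 4040). It was high by less for inflammasome genes (325, others 133 to 171), p53 targets (928, others 479 to 595), chaperones (2636, others 1545 to 1795), proteasome subunits (2628, others 1453 to 1724) and Bcl-2 family and caspase genes (1782, others 981 to 1184), and low for dendritic cell markers (113, others 197 to 221). Among single genes, O group replicate 1 was high for S100a9 (1375 CPM, others 168 to 302), Oaz1 (6195 CPM, others 921 to 1890), Pygl (168 CPM, others 52.2 to 75.2) and Gusb (17.98 CPM, others 6.12 to 8.27). All CPM of O group replicate 1 are raised by its low TMM factor of 0.551. The part of this scaling in its far values was not tested.

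In the other libraries the far values were fewer. S group replicate 3 was high for Gapdh (71.1 CPM, others 1.86 to 5.63) and for Rragc (28.5 CPM, others 22.6 to 24.1). S group replicate 5 was high for Kmt2d (239 CPM, others 55.1 to 94.6) and for the summed melanocyte markers (6.37 CPM, others 2.36 to 2.91). S group replicate 2 was high for S100a9 (154 CPM, others 73.3 to 94.4), and O group replicate 5 for the summed chromatin regulators (3164 CPM, others 2432 to 2473).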

How the results depend on the processing

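Counts at an unadjusted P under 0.05 stayed within 1.5 times of 1849 with DESeq2 on the filtered genes (2118), DESeq2 on all genes (2431), RLE factors (1888), hemoglobin left out of the normalization (1851), voom (2319) and all 3 groups in a single fit (2227), and ran from 1293 to 2146 with single libraries left out. edgeR without a filter gave 3131 (1759 higher, 1372 lower). Genes at an adjusted P under 0.05 numbered 0 in edgeR's main test, 276 and 224 in DESeq2 on the filtered and on all genes, and 3 with the replicate block. The replicate block gave 1073 higher and 472 lower genes, or 69.4% higher against 52.0%, but same-numbered S group and O group libraries deviated together with r of -0.23 to 0.19, so the numbers were not taken to pair them. Lone adjusted calls of the tissue difference came with the replicate block (1) and without PBMC O group replicate 5 (1, range 0 to 1 over single libraries left out). The difference in genes detected was 1509.55 to 2217.45 with a library left out and 487.6 at 10 reads or more, and that in the top 10 share was -4.43 to 0.916 percentage points. Among the genes named in the text, log2 fold changes of 8 reversed in some setting. Without O group replicates 1 and 4, Pf4 gave 0.013, Hba-a1 0.28, Itga2b 0.14, Ppbp 0.16, F2rl3 0.32, Oaz1 0.34, Ciita -0.15 and Prrt4 0.013. With voom, Hba-a1 gave 0.25, Ppbp 0.0066, Oaz1 0.052 and Ciita -0.029, and with the block Hba-a1 gave 0.18. With single libraries left out, Hba-a1 ran from -0.89 to 0.52, Ppbp from -0.57 to 0.045, Oaz1 from -0.66 to 0.29 and Ciita from -0.11 to 0.23. Of the values of named genes that had passed the threshold, 1977 kept side and direction, 169 missed the threshold and 2 reversed. The cause was not tested. Genes of few reads are limited by depth.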

Other observations

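Transcripts of stratified and glandular epithelium, named after their values were seen, were counted in every S group library and at lower counts, or not at all, in most O group libraries. Those tested passed the filter on low counts mainly through S group, where they are high. Their fold changes, P values and lack of overlap are thus a description and not independent evidence of a difference. Krt13, a keratin of mucosal epithelium, had 34, 14, 81, 45 and 19 counts in S group, against 0, 4, 0, 1 and 9 in O group (log2 fold change 3.96 ± 0.77, adjusted P = 0.225), with 24, 2, 10, 2 and 14 in C group. Its groups did not overlap. Krt4, the partner of Krt13, had 5 to 12 counts in each S group library and 0 in each O group library, and did not pass the filter on low counts. Plet1, a surface protein of epithelia, had 109, 53, 177, 98 and 45 counts in S group, against 0, 6, 2, 4 and 42 in O group (log2 fold change 3.53 ± 0.71, adjusted P = 0.225). Psca, a surface antigen of epithelia, had 6 to 53 counts in S group, against 0 to 12 in O group (log2 fold change 3.14 ± 0.81, adjusted P = 0.225). The serine protease genes Prss27 (10 to 88 counts in S group, 0 to 15 in O group, log2 fold change 3.96 ± 1.03, adjusted P = 0.225) and Prss22 (5 to 58 and 0 to 26, log2 fold change 2.60 ± 0.96, adjusted P = 0.303) overlapped between the groups in counts, and Prss22 missed the threshold without S group replicate 3. All 15 Prss27 counts of O group were in replicate 5, and without that library the fitted log2 fold change was 8.24, a value set against counts of 0 that depends on the prior count. In O group, replicate 5 held the highest count of each of the 5 genes that passed the filter. In C group, Plet1 had 87, 22, 54, 24 and 25 counts and Psca 1 to 13. Prss27 had 0 to 21 counts in C group, Prss22 0 to 29 and Krt4 0 to 5. The C group counts of each of these genes, Krt13 included, reached into the range of S group.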
